A study of Mus musculus with 18 samples.

Results

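Immunoglobulin gene segments were followed across ileum libraries of 18 mice, with 1 library per mouse. The members are the genes annotated as immunoglobulin constant, variable, joining or diversity genes that reached 1 CPM (the count of a gene scaled to the total count of its library) in at least 4 of the 18 libraries. This rule kept 175 of the 264 annotated immunoglobulin genes among 55487 genes in all. The 6 controls carried CAG-*Ppara*,-*EGFP*, a transgene at the *Col1a1* safe harbor site, without *Villin-CreERT2*. The IEC-*Ppara* mice, 6 of them heterozygous and 6 homozygous, carried *Villin-CreERT2* with 1 or 2 copies of the transgene. All were chow-fed C57BL6/J littermates of 8 to 13 weeks, and all received tamoxifen (100 mg/kg) on 3 consecutive days and were collected 2 weeks later. The transgene was placed with Cas9 in fertilized eggs and the strain was founded from 1 clone, and Villin-driven Cre acts in the intestinal epithelium. The RNA is from the whole thickness of the ileum, so epithelium, muscle, plasma cells and any lymphoid follicle in the piece are mixed.

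Antibody genes are assembled in developing B cells by joining a variable (V), a joining (J) and, for heavy chains, a diversity (D) segment, and the joined exon is then spliced to a constant region that sets the isotype. B cells start with the IgM and IgD constant regions, encoded by *Ighm* and *Ighd*, and switch to IgA or IgG by deleting the DNA in between. The small intestine is home to plasma cells that mostly secrete dimeric IgA, which epithelial cells carry into the lumen. Because the descendants of a B cell usually keep its V and J choice, V segment levels in tissue RNA also carry the sizes of plasma cell clones.

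By kind, 11 of 13 annotated constant genes, 156 of 218 V genes, 8 of 14 J genes and 0 of 19 D genes were members. Of the V members, 81 belong to the heavy chain locus (*Ighv*), 72 to the kappa locus (*Igkv*) and 3 to the lambda locus (*Iglv*). They lie on chromosome 12 (92 genes), chromosome 6 (77 genes) and chromosome 16 (6 genes) of build GRCm38. A total of 104 members reached 1 CPM in at least 4 libraries of each genotype, and 47 did so in all 18 libraries. Some passed through 1 genotype alone, 14 through the controls, 7 through the heterozygous and 6 through the homozygous mice, and such members had to be high there. At the edge of the rule, the fourth-highest library was at 1.05 CPM for *Ighv8-11*, a member, and at 0.991 CPM for *Ighv1-37*, which is not one. At the depth of these libraries 1 CPM is 38.5 to 50.4 counts.

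The members took between 0.299% and 0.962% of all counts of a library. Their summed CPM ran from 5187 to 8113 (median 7432) in controls, from 4278 to 9617 (median 6174) in heterozygous mice and from 2988 to 9610 (median 4638) in homozygous mice. The ranges overlapped. The top of the homozygous range was homozygous 1, and the other 5 homozygous libraries held 2988 to 5176 CPM, each below the lowest control library. The sum and its parts were not tested, since the members were chosen by their levels. In bulk tissue, fewer plasma cells, less immunoglobulin RNA per plasma cell and a larger part of other tissue, such as muscle, cannot be told apart.

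The plasma cell label was checked against genes of these cells that are not immunoglobulins. *Jchain*, which links IgA and IgM into polymers, was at 167 to 526 CPM. *Mzb1*, an endoplasmic reticulum chaperone of antibody-secreting cells, was at 0.257 to 2.17 CPM and failed the filter, and *Tnfrsf17*, the survival receptor BCMA, was at 0.493 to 1.67 CPM. B cells were not evenly spread over the libraries. The summed level of 18 B cell and follicle genes was 855 CPM in control 2, 683 in control 3, 487 in heterozygous 2 and 157 in homozygous 1, and 39.1 to 75.6 CPM in the other 14 libraries. These 4 libraries stand apart, and the constant genes and gene lists that change most without them are given both ways, a choice made after seeing the data.

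Across the genotypes, edgeR's quasi-likelihood test called no member at an adjusted p under 0.05 in any of the 3 comparisons. Over all 16736 genes tested it called 0.376% in homozygous against control, 0.269% in heterozygous against control and 0% in homozygous against heterozygous mice. At an unadjusted p under 0.05, 27, 33 and 26 of the 175 members passed in homozygous against control, heterozygous against control and homozygous against heterozygous mice. The same threshold passed 7.81%, 5.2% and 7.48% of all genes tested. The DESeq2 Wald test called 5, 2 and 2 members in these comparisons, each lower in the group named before "against", where it called 0.945%, 0.532% and 0.0777% of all genes tested. *Ighv14-1*, called in heterozygous against control mice, is a member only through the controls, where it had to be high. Its call and direction are a description only. Limma-voom called 0 members in each comparison, and 0.364%, 0.257% and 0% of all genes. At an unadjusted p under 0.05, limma-voom passed fewer members, 12, 16 and 13, against 1274, 813 and 1282 of all 16736 genes. The comparisons share groups, so their member counts are not independent of each other.

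**Figure D1:**
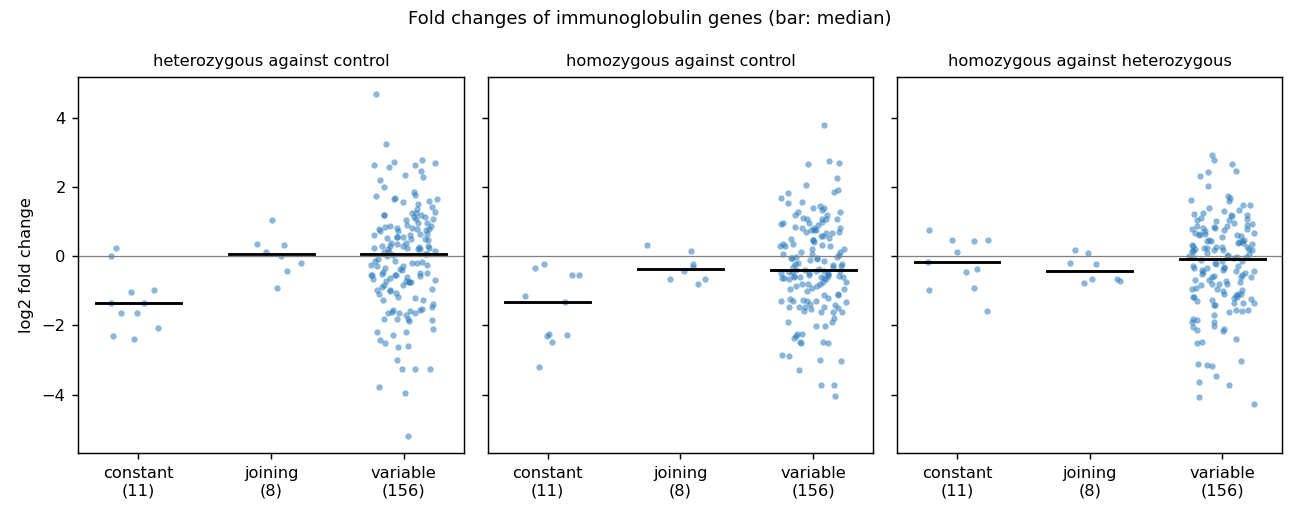
Log2 fold change (edgeR) of each member in the 3 comparisons, with 1 point per gene, by kind of segment. Black bars are medians. With all 18 libraries the 11 constant genes lie below 0 in homozygous against control mice (8 of 11 without the 4 libraries high in B cell genes), while V segments spread from -4.04 to 3.81.

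The signs of the fitted fold changes were counted by kind of segment, and no difference between kinds was tested. In homozygous against control mice all 11 constant genes had negative log2 fold changes (median -1.32), as did 6 of 8 J segments (median -0.37) and 95 of 156 V segments (median -0.40). The median over all genes tested was 0.01. The count for constant genes rests on the 4 libraries high in B cell genes, since without them 8 of 11 were negative (median -0.47) and *Ighg1*, *Ighg3* and *Iglc3* were positive. J segments then had 7 of 8 negative (median -0.69) and V segments 96 of 156 (median -0.47). In heterozygous against control mice 9 of 11 constant genes were negative (median -1.34), against 3 of 8 J segments (median 0.07) and 76 of 156 V segments (median 0.07), and without the 4 libraries 7 of 11 constant genes were negative (median -0.48). In homozygous against heterozygous mice the medians were -0.17 for constant genes, -0.44 for J segments and -0.09 for V segments. The plot of fold changes by kind shows these shifts beside a scatter of V segments many times wider. No single member passed the test, so these are counts of signs only.

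*Igha*, the constant region of IgA (chr12:113254830-113260236, minus strand, GRCm38), was the most abundant member by CPM. It was at 2178 to 3479 CPM (median 2933) in controls, 1741 to 3945 CPM (median 2539) in heterozygous mice and 1259 to 4284 CPM (median 1918) in homozygous mice. Homozygous 1 held the highest *Igha* level of all libraries, and the other 5 homozygous libraries (1259 to 2104 CPM) lay below every control. The log2 fold change of homozygous against control mice was -0.35 ± 0.24 (SE; edgeR, adjusted p = 0.754), and without homozygous 1 it was -0.65 ± 0.19 (adjusted p = 0.256). In heterozygous against control mice *Igha* differed by 0.02 ± 0.24 on the log2 scale (unadjusted p = 0.934). *Igha* therefore did not pass the test with or without that library. Summed over 10 smooth muscle genes, the level was 521 to 5698 CPM in controls and 3890 to 8970 CPM in homozygous mice, and its part in the *Igha* values was not tested.

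*Igkc*, the kappa light chain constant region (chr6:70726435-70726966, plus strand), and *Jchain* tracked *Igha* from library to library. *Igkc* was at 884 to 1781 CPM (median 1307) in controls, 1049 to 2174 CPM (median 1484) in heterozygous and 566 to 2295 CPM (median 1063) in homozygous mice, and the groups overlapped. Its log2 fold change was -0.23 ± 0.26 in homozygous (edgeR, adjusted p = 0.882) and 0.23 ± 0.26 in heterozygous mice (unadjusted p = 0.383) against controls. Homozygous 1 was at 2295 CPM and the other homozygous libraries at 566 to 1162 CPM, so that library raises the homozygous value. On log2 CPM over the 18 libraries, *Igha* and *Igkc* had a Pearson's r of 0.943 and a Spearman's rho of 0.924 (permutation p = 1e-05 for both, which is the least that 100000 permutations allow). For *Igha* and *Jchain*, r was 0.972 and rho 0.969 (permutation p = 1e-05 for each). Each r had an adjusted p of 1.5e-05 over the 6 pairs of genes computed. Without homozygous 1 and 6, the libraries farthest from the median of *Igha*, r was 0.901 and 0.952. Within genotypes, r of *Igha* with *Igkc* came to 0.871 (controls), 0.985 (heterozygous) and 0.977 (homozygous), and with *Jchain* it was 0.970, 0.916 and 0.997.

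**Figure D2:**
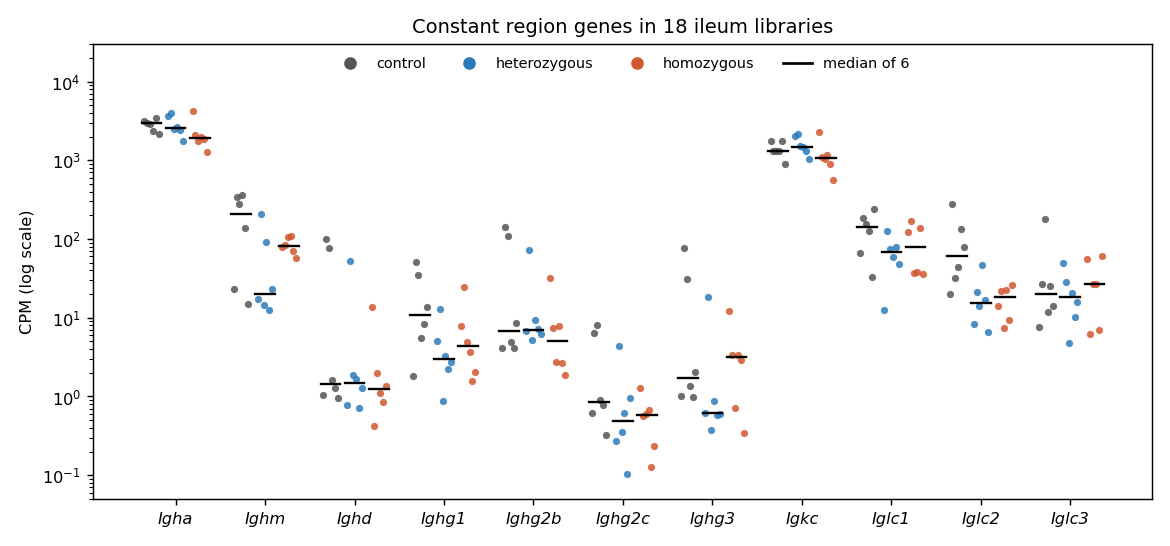
CPM of the 11 constant genes on a log axis, with 1 point per library (6 per genotype) and black bars at the median of 6. Of the 11 genes, *Igha* and *Igkc* have the lowest SD of log2 CPM within genotypes (0.44 and 0.48). *Ighd* and the IgG genes have a few libraries far above the rest.

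*Igha* RNA was by far the largest heavy chain isotype in every library. Its share of the counts on the 7 heavy chain constant members was 80.3% to 99.0% in controls (median 90.9%), 91.4% to 99.2% in heterozygous mice (median 98.5%) and 93.7% to 96.7% in homozygous mice (median 94.9%). Per kilobase of annotated gene the medians were 87.9%, 98.1% and 93.2%. The end of the secreted coding sequence of *Igha* and *Ighm* is shown because both chains polymerize through the cysteine before the last residue, which bonds with the J chain. The 60 bases are reference sequence from the GENCODE M21 transcripts on GRCm38, at chr12:113258771-113258830 for *Igha* and chr12:113420870-113420929 for *Ighm*, minus strand in each case, with the cysteine codon in capitals.
Igha: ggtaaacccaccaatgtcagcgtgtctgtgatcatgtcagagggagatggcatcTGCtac
Ighm: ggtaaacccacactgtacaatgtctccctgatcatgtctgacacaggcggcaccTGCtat

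*Ighm*, the IgM constant region (chr12:113418558-113422730, minus strand), was the next heavy chain isotype by mean level. It was at 14.8 to 363 CPM (median 208) in controls, 12.5 to 209 CPM (median 20.1) in heterozygous and 57.4 to 110 CPM (median 81.6) in homozygous mice. Controls and heterozygous mice spanned low and high libraries, whereas the homozygous libraries sat close together within the range of the controls. The log2 fold change was -1.16 ± 0.74 in homozygous (edgeR, adjusted p = 0.729) and -1.63 ± 0.75 in heterozygous mice (adjusted p = 0.935) against controls. Without the 4 libraries these were -0.59 ± 0.76 and -2.0 ± 0.78 (adjusted p = 0.935 and 0.975). Control 4 had the highest *Ighm* of all (363 CPM) with *Ighd* at 1.64 CPM and a summed B cell and follicle level of 65.5 CPM, so it was not among the libraries high in B cell genes.

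The balance of IgA to IgM was tested as a log2 ratio of *Igha* to *Ighm* counts, with 0.5 added to each. Control libraries had a ratio of 4.69 ± 2.02, heterozygous libraries 6.34 ± 1.5 and homozygous libraries 4.63 ± 0.62 (mean ± SD, n = 6 each). In two-sided exact permutation tests over all arrangements of the libraries, homozygous differed from heterozygous mice by -1.71 (p = 0.0325, adjusted p = 0.195 over 6 ratio tests). Heterozygous differed from control mice by 1.65 (exact p = 0.126, adjusted p = 0.316) and homozygous from control mice by -0.06 (exact p = 0.942, adjusted p = 0.942). None passed after adjustment. The 4 libraries high in B cell genes were also left out, a choice made after seeing the data. Homozygous and heterozygous mice (n = 5 each) then differed by -2.36 (adjusted exact p = 0.0476). The libraries left out include the lowest heterozygous ratio (heterozygous 2, 4.24) and the highest homozygous ratio (homozygous 1, 5.78), so this p is a description only. Homozygous then differed from control mice by -1.01 and heterozygous from control mice by 1.35 (adjusted exact p = 0.440 for each).

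*Ighd*, the IgD constant region of naive B cells, and the IgG constant genes were high in a handful of libraries. *Ighd* was at 99.6 CPM in control 2, 77.8 in control 3, 52.7 in heterozygous 2 and 13.7 in homozygous 1, and at 0.426 to 2.00 CPM in the other 14 libraries. *Ighg2b* was at 31.9 to 144 CPM in those 4 libraries and at 1.89 to 9.27 CPM in the others, and *Ighg3* at 12.2 to 76.3 CPM against 0.343 to 3.38 CPM. *Ighg2c* followed at 1.28 to 8.05 CPM against 0.104 to 0.959 CPM. *Ighg1* did not separate as cleanly, with 7.84 to 51.7 CPM in the 4 libraries, but 24.8 CPM in homozygous 2 and 13.5 CPM in control 6. The 4 libraries are the ones with a summed B cell and follicle level of 157 to 855 CPM, against 39.1 to 75.6 CPM elsewhere. Whether follicle tissue in the piece sets these levels was not tested.

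**Figure D3:**
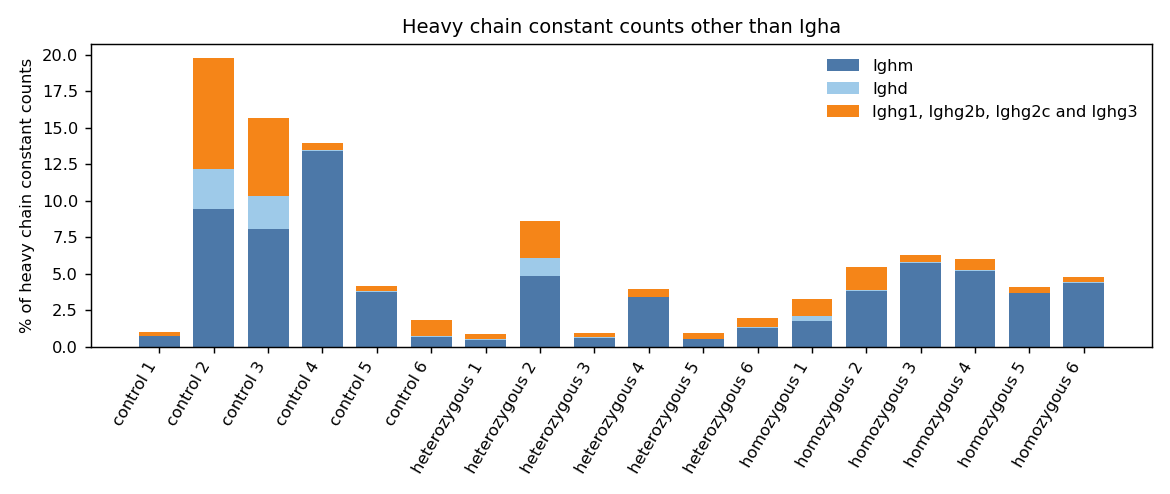
Share (%) of heavy chain constant counts that fell on genes other than *Igha*, stacked by isotype, with 1 bar per library. *Ighd* and the IgG genes are visible mainly in controls 2 and 3 and heterozygous 2, while control 4 holds 13.4% *Ighm* with almost no *Ighd*.

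Fold changes of these genes depended on the same libraries. *Ighd* had a log2 fold change of -3.20 ± 1.45 in homozygous against control mice (edgeR, adjusted p = 0.619), and without the 4 libraries it was -0.10 ± 0.37. For *Ighg2b* the value went from -2.31 ± 1.05 (adjusted p = 0.619) to -0.27 ± 0.41, and for *Ighg1* from -1.32 ± 0.79 (adjusted p = 0.713) to 0.04 ± 0.78. *Ighg3* turned from -2.25 ± 1.25 (adjusted p = 0.696) to 0.65 ± 0.55. *Ighg2c* went from -2.27 ± 0.89 (adjusted p = 0.532) to -0.56 ± 0.54. *Ighe*, the IgE constant region, is not a member and had 0 to 23 counts per library. Its highest value, 0.526 CPM, was in heterozygous 2.

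Per kilobase of annotated gene, the mean level over the 18 libraries was 2604 CPM for *Igkc*, 981 for *Igha*, 213 for *Iglc1*, 72.8 for *Iglc2* and 71.5 for *Iglc3*, with *Ighm* next. *Ighg2b* (9.09), *Ighd* (7.63), *Ighg1* (4.03), *Ighg3* (3.48) and *Ighg2c* (1.14) were lower. The order among *Iglc2*, *Iglc3* and *Ighm* is not resolved, since each ranged more than 10-fold between libraries.

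The lambda light chain constant genes varied more than *Igkc*. The lambda share of light chain constant counts was 5.04% to 27.4% in controls (median 17.1%), 3.36% to 7.97% in heterozygous mice (median 6.87%) and 6.47% to 17.9% in homozygous mice (median 11.3%). Controls 2 and 6 were highest, and the groups overlapped. *Iglc1* was at 33.1 to 239 CPM (median 140) in controls, 12.5 to 125 CPM (median 67.4) in heterozygous and 36.4 to 170 CPM (median 79.5) in homozygous mice. The log2 ratio of *Iglc1* to *Igkc* had a mean of -3.61 ± 1.40 among controls, -4.81 ± 1.26 among heterozygous and -3.89 ± 1.00 among homozygous mice (mean ± SD, n = 6 each). Heterozygous differed from control mice by -1.20 (two-sided exact permutation p = 0.158, adjusted p = 0.316), homozygous from control mice by -0.28 (exact p = 0.690, adjusted p = 0.829) and homozygous from heterozygous mice by 0.92 (exact p = 0.214, adjusted p = 0.321). With the 4 libraries high in B cell genes left out these were -1.01, 0.12 and 1.13 (lowest adjusted exact p = 0.440).

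*Iglc2*, another lambda constant gene (chr16:19198396-19200351, minus strand), had the lowest adjusted p of all members. It was at 20.2 to 280 CPM (median 60.8) in controls, 6.61 to 46.6 CPM (median 15.4) in heterozygous and 7.48 to 26.4 CPM (median 18.1) in homozygous mice. The highest control was control 2, and the lowest control lay inside the range of each IEC-*Ppara* group. The log2 fold change was -2.48 ± 0.60 in homozygous (edgeR, adjusted p = 0.117) and -2.31 ± 0.60 in heterozygous mice (adjusted p = 0.219) against controls. The homozygous value was -1.86 ± 0.53 without control 2 (adjusted p = 0.320) and passed the threshold without control 1 (-2.69, adjusted p = 0.0473). By the DESeq2 Wald test *Iglc2* passed in homozygous (adjusted p = 0.00592) and heterozygous mice (adjusted p = 0.0214). *Iglc3* was at 182 CPM in control 3 and at 4.72 to 60.7 CPM in the other libraries, with log2 fold changes of -0.55 ± 0.76 in homozygous (adjusted p = 0.917) and -1.02 ± 0.77 in heterozygous mice (unadjusted p = 0.200) against controls. Without the 4 libraries these were 0.79 ± 0.70 and 0.49 ± 0.70.

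*Iglc2* and *Iglc3* are near-copies, and reads that fit both equally well are not in the counts, so their split rests on reads over the differences. Their coding sequences are 95.9% identical in the reference, against 73.3% for *Iglc1* and *Iglc2*. The stretch of 120 bases below shows 7 differences in capitals, from GENCODE M21 on GRCm38 at chr16:19198731-19198850 (*Iglc2*) and chr16:19065560-19065679 (*Iglc3*), minus strand.
Iglc2: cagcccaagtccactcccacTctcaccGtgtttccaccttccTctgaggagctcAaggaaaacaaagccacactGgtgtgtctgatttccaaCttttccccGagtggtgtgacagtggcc
Iglc3: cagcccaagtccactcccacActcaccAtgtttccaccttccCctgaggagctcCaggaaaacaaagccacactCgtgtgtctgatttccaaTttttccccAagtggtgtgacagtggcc

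The lambda V genes are few enough to be read beside their constant genes. By position on the minus strand of chromosome 16, *Iglv2* and *Iglv3* come first, followed by *Iglc2*, *Iglv1*, *Iglc3* and *Iglc1*. *Iglv1* was at 68.4 to 400 CPM (median 185) in controls, 25.4 to 134 CPM (median 90.9) in heterozygous and 72.7 to 194 CPM (median 126) in homozygous mice, and the groups overlapped. Its log2 fold change was -0.58 ± 0.43 in homozygous (edgeR, adjusted p = 0.774) and -1.18 ± 0.44 in heterozygous mice (adjusted p = 0.760) against controls. *Iglv2* was at 19.2 to 238 CPM (median 60.3) in controls, 6.06 to 86.0 CPM (median 13.6) in heterozygous and 3.98 to 26.7 CPM (median 15.8) in homozygous mice. Its log2 fold change was -2.47 ± 0.73 in homozygous (edgeR, adjusted p = 0.267, and 0.0495 by the DESeq2 Wald test) and -1.65 ± 0.71 in heterozygous mice (adjusted p = 0.899) against controls. *Iglv3* stayed at 0.246 to 4.49 CPM. *Iglv1* and *Iglv2* differ at 13 of 351 aligned coding positions, gaps included (96.3% identity). The window of 120 coding bases below holds 3 of these in capitals (minus strand, chr16:19085200-19085319 for *Iglv1* and chr16:19260584-19260799 for *Iglv2*, the latter span including an intron).
Iglv1: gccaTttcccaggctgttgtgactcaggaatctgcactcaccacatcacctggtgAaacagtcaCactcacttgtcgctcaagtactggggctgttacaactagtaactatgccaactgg
Iglv2: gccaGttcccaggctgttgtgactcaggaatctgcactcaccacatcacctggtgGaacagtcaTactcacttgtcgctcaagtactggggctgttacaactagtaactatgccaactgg

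*Iglv1* and *Iglv2* were set beside lambda constant genes that lie after them in the locus, over the 18 libraries. On log2 CPM, *Iglv1* and *Iglc1* had a Pearson's r of 0.891 and a Spearman's rho of 0.853 (permutation p = 1e-05 for each, adjusted p = 1.5e-05 for r), and r was 0.874 without heterozygous 1 and control 3, the libraries farthest from the median of *Iglv1*. *Iglv1* and *Iglc3* had an r of 0.162 (permutation p = 0.521, adjusted p = 0.521) and a rho of 0.104 (permutation p = 0.679), with an r of 0.0406 without the same 2 libraries. *Iglv2* and *Iglc2* had an r of 0.824 (permutation p = 6e-05, adjusted p = 7.2e-05) and a rho of 0.785 (permutation p = 0.00016), and r was 0.646 without controls 2 and 5. Within genotypes, r of *Iglv2* with *Iglc2* was 0.990 in controls, 0.950 in homozygous and 0.185 in heterozygous mice. Heterozygous 1 stands off this line, with *Iglv2* at 86.0 CPM, *Iglc2* at 8.36 CPM and *Iglc3* at 50.3 CPM. It is also the library with the lowest *Iglc1* (12.5 CPM) and *Iglv1* (25.4 CPM).

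**Figure D4:**
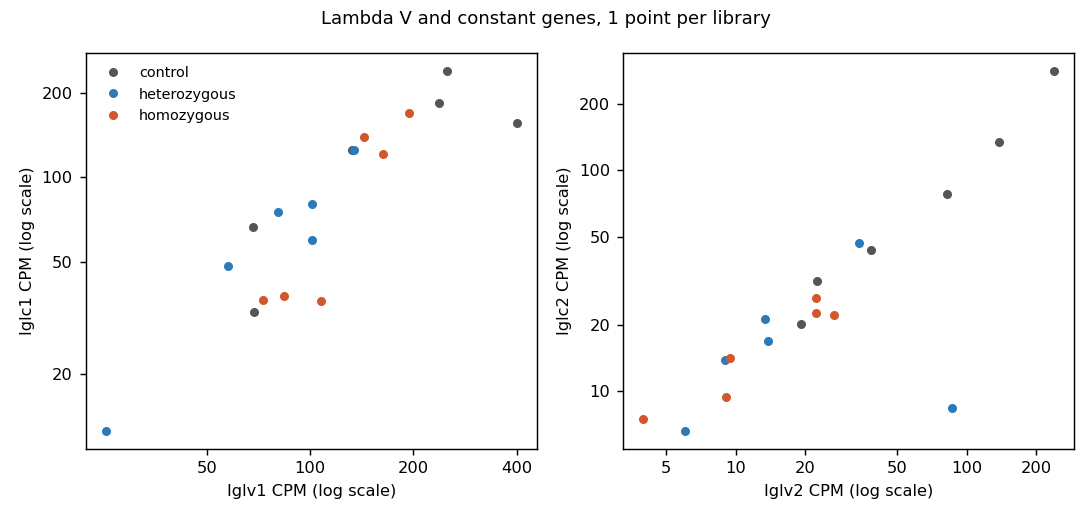
CPM of *Iglv1* against *Iglc1* and of *Iglv2* against *Iglc2*, log axes, with 1 point per library colored by genotype. In the second panel heterozygous 1 lies apart, at 86.0 CPM *Iglv2* and 8.36 CPM *Iglc2*.

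The 8 J members are the 4 heavy chain segments and 4 of the 5 annotated kappa segments. J segments are short exons that end the variable domain, and they carried few counts. Only unambiguous reads were counted, so reads that overlap a J segment and another gene can be missing, and their part was not tested. The sequence of 1 annotated transcript of each J member is shown because each of the 8 members holds a short motif. For *Ighj2*, *Igkj2* and *Igkj5* this transcript is shorter than the gene. Capitals mark the bases TGGGG in heavy and TTCGG in kappa segments, which encode the start of the conserved W/F-G-X-G turn. Searched on the coding strand, TGGGG for heavy and TTCGG for light chain segments, this motif is in 12 of the 14 annotated J segments. The sequences are from GENCODE M21 on GRCm38, *Ighj1* at chr12:113429781-113429833, *Ighj2* at chr12:113429468-113429515, *Ighj3* at chr12:113429085-113429132 and *Ighj4* at chr12:113428514-113428567 on the minus strand, and *Igkj1* at chr6:70722562-70722599, *Igkj2* at chr6:70722916-70722954, *Igkj4* at chr6:70723548-70723585 and *Igkj5* at chr6:70723886-70723923 on the plus strand.
Ighj1: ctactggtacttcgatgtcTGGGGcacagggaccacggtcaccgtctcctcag
Ighj2: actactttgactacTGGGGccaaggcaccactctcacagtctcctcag
Ighj3: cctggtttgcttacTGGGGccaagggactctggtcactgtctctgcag
Ighj4: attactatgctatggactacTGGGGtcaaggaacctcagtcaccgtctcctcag
Igkj1: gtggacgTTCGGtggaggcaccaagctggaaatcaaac
Igkj2: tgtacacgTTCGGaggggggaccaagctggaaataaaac
Igkj4: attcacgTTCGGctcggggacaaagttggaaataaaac
Igkj5: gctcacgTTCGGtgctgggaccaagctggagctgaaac

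J segment levels varied less from library to library than V segment levels, as the SDs below give. *Ighj1* was at 3.23 to 10.2 CPM (median 9.23) in controls, 4.96 to 27.9 CPM (median 16.7) in heterozygous and 3.62 to 17.5 CPM (median 9.58) in homozygous mice. Its log2 fold change in heterozygous against control mice was 1.04 ± 0.40 (edgeR, adjusted p = 0.804), and 5 of 6 heterozygous libraries lay above every control. *Ighj3* was at 7.61 to 40.0 CPM (median 20.5) in controls and 4.87 to 17.3 CPM (median 10.3) in heterozygous mice, with a log2 fold change of -0.91 ± 0.43 (adjusted p = 0.950). *Ighj2* was at 68.1 CPM in heterozygous 2 and at 7.62 to 43.4 CPM elsewhere. *Ighj4* ranged from 5.70 to 27.9 CPM, *Igkj1* from 1.57 to 14.6, *Igkj2* from 2.15 to 9.46, *Igkj4* from 0.814 to 4.13 and *Igkj5* from 1.48 to 13.1 CPM. As a share of heavy chain J counts, *Ighj2* had the highest median (32.2%) and reached 69.7% in heterozygous 2, where *Ighv8-12* was the leading V segment. These counts are not scaled to length, and *Ighj2* is annotated at 100 bases against 48 to 54 for the other heavy chain J segments. *Ighj1* reached 46.0% in heterozygous 3, where *Ighv7-3* led, and *Ighj3* reached 51.8% in control 5. As a share of kappa J counts, *Igkj5* had the highest median (33.5%) and reached 53.7% in heterozygous 5.

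V segment levels differed widely between mice of 1 genotype. The SD of log2 CPM within genotypes had a median of 1.66 over the 156 V members, 1.5 over constant genes and 0.70 over J segments, against 0.23 over all 16736 genes tested. All 156 V members lay above 0.593, the 90th percentile of all genes, as did 9 of 11 constant genes and 7 of 8 J segments. *Igha* (0.44) and *Igkc* (0.48) had the lowest SD of all members. *Ighv1-20* (3.36), *Ighv11-2* (3.27) and *Ighv2-6* (3.18) had the highest. The library highest in a V segment was over 10 times the median library for 82 of the 156, and 22 had over 50% of their summed CPM in a single library. The top library was a control for 56 segments, a heterozygous mouse for 57 and a homozygous mouse for 43.

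Among heavy chain segments, the 5 with the highest mean CPM were *Ighv7-3*, *Ighv8-5*, *Ighv1-53*, *Ighv1-64* and *Ighv5-17*. *Ighv7-3* was at 19.2 to 115 CPM (median 37.0) in controls, 14.3 to 357 CPM (median 61.7) in heterozygous and 11.8 to 59.2 CPM (median 16.5) in homozygous mice. The ranges overlapped, with heterozygous 3 far above the rest. In homozygous against heterozygous mice its log2 fold change was -2.16 ± 0.67 (edgeR, adjusted p = 0.554). *Ighv8-5* was above 200 CPM in controls 1 (279 CPM) and 5 (282 CPM), at 129 CPM in homozygous 1 and at 1.13 CPM in control 6. *Ighv1-53* was the steadiest of the 5, at 14.2 to 113 CPM over all libraries. *Ighv1-64* ran from 3.17 to 221 CPM and *Ighv5-17* from 4.53 to 165 CPM. *Ighv1-53* and *Ighv1-64* share 95.4% of their coding positions in the reference, so reads over shared stretches could be left out of the counts.

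Among kappa segments, *Igkv1-117*, *Igkv1-110*, *Igkv6-15*, *Igkv1-135* and *Igkv4-72* had the highest mean CPM. *Igkv1-117* was at 18.5 to 243 CPM (median 75.7) in controls, 44.6 to 407 CPM (median 129) in heterozygous and 21.4 to 196 CPM (median 46.5) in homozygous mice, and was among the 3 leading kappa segments of 12 of the 18 libraries. *Igkv1-110* was among the leading 3 in 10 libraries, at 20.3 to 316 CPM. The heterozygous against control log2 fold changes were 1.04 ± 0.62 (edgeR, unadjusted p = 0.111) and -0.29 ± 0.57 (unadjusted p = 0.620). *Igkv6-15* was at 261 CPM in heterozygous 5 and at 7.08 to 100 CPM elsewhere. *Igkv1-135* ranged from 0.481 CPM in homozygous 5 to 153 CPM in homozygous 1, and *Igkv4-72* from 2.44 to 80.1 CPM.

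*Igkv1-117* and *Igkv1-110* differ at 10 of 359 coding positions (97.2% identity), so the balance of the 2 commonest kappa segments rests on reads over a few bases. The first 120 coding bases differ at 1 position, in capitals below (GENCODE M21 on GRCm38, plus strand, spans with an intron at chr6:68121091-68121588 for *Igkv1-117* and chr6:68270527-68271028 for *Igkv1-110*).
Igkv1-117: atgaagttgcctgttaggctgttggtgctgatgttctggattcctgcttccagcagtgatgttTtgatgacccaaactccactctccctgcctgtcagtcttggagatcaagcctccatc
Igkv1-110: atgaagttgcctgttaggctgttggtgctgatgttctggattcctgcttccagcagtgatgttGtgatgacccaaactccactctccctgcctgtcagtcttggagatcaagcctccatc

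In many libraries 1 segment took a large part of the V counts of its locus. *Ighv7-3* held 37.1% of the *Ighv* counts in heterozygous 3, *Ighv1-20* 32.1% in control 6, *Ighv9-4* 29.5% in control 2 and *Ighv8-12* 29.5% in heterozygous 2. *Ighv1-20* was at 268 CPM in control 6 and at 0 to 22.6 CPM in the other 17 libraries. *Ighv9-4* was at 372 CPM in control 2, 124 CPM in control 5 and 0.169 to 23.3 CPM elsewhere. Of the kappa segments, *Igkv1-117* held 33.4% in heterozygous 2, *Igkv6-15* 32.3% in heterozygous 5 and *Igkv1-110* 31.3% in control 5. A segment above 20% was found in 5 control, 3 heterozygous and 0 homozygous libraries for *Ighv*, and in 3, 4 and 0 for *Igkv*. These counts were made after the shares were seen and were not tested.

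**Figure D5:**
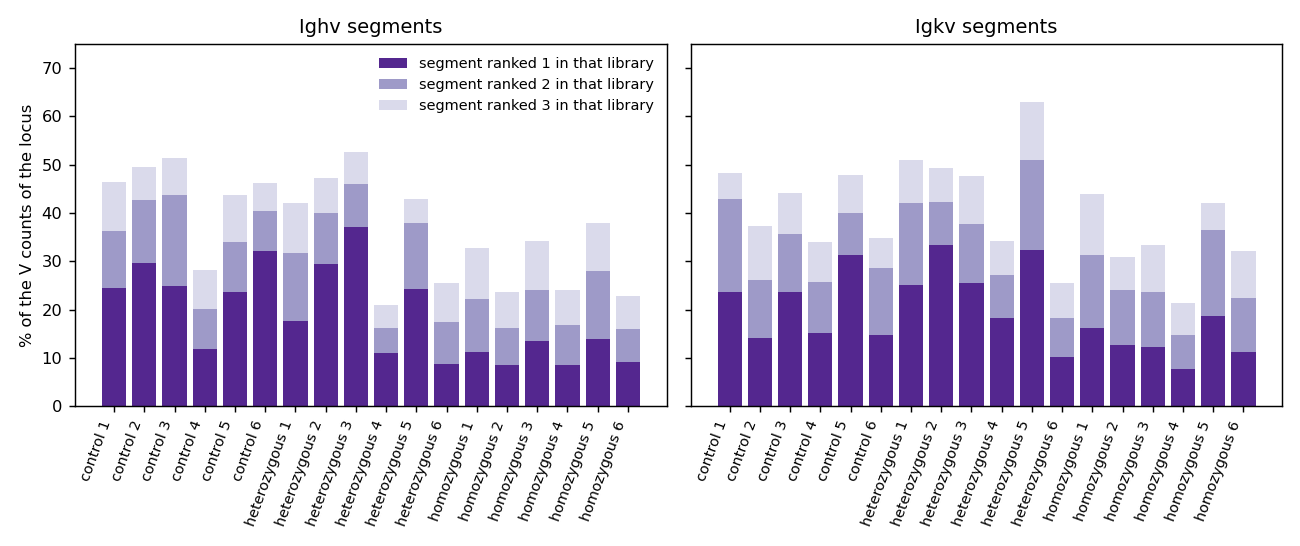
Share (%) of the *Ighv* and *Igkv* counts of each library taken by the segments ranked 1, 2 and 3 in that library, stacked. The rank 1 bar is between 8.44% and 37.1% for *Ighv* and between 7.76% and 33.4% for *Igkv*.

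Evenness of V use was summarized as the number of equally used segments that would give the same sum of squared shares, the effective number. For *Ighv* it was 8.06 to 20.9 (median 9.41) in controls, 6.29 to 26.5 (median 11.3) in heterozygous and 13.6 to 26.4 (median 20.4) in homozygous mice. For *Igkv* it was 8.09 to 17.2 (median 13.5), 6.15 to 22.1 (median 9.14) and 12.0 to 25.4 (median 17.0). The ranges overlapped at both loci, and control 4 (20.9) was the single control above 11 for *Ighv*. These are scores over the members and have no test. In *Ighv*, 27 different segments were among the leading 3 of some library and 15 led one, and in *Igkv* the numbers were 23 and 11.

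V use was also compared between pairs of libraries. The share of *Ighv* counts that a pair of libraries had in common, as the sum of the smaller of their shares of each segment, had a median of 41.5% over 45 pairs within genotypes and 40.0% over 108 pairs between them. For *Igkv* the medians were 44.9% and 45.7%. By V family, *Ighv1* with 39 members took 43.0% of *Ighv* counts on average (20.8% to 68.9%), and *Ighv7* with 3 members took 9.39% (2.09% to 39.5%). In *Igkv*, the 7 members of *Igkv1* took 27.7% (14.8% to 45.3%), the 17 members of *Igkv4* 15.3% and the 8 members of *Igkv6* 13.4%.

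The V segments with the most extreme fitted fold changes often had their high values in 1 or 2 libraries. In heterozygous against control mice *Ighv14-1* had a log2 fold change of -5.21 ± 1.43 (edgeR, adjusted p = 0.269), with 85.7 CPM in control 2 and at most 12.0 CPM in any other library. Without control 2 the value was -3.03 ± 1.14 (adjusted p = 0.921), and the DESeq2 Wald test called it with all libraries (adjusted p = 0.00294). It reached 1 CPM in 4 controls, 1 heterozygous and 1 homozygous library, so it is a member only through the controls, where it had to be high, and this call is a description only. *Ighv8-8* was at 203 CPM in control 3 and at 0.190 to 7.68 CPM elsewhere. Its homozygous against control value of -3.73 ± 1.06 (edgeR, adjusted p = 0.244) became -0.87 ± 0.57 without control 3. *Igkv6-14* was at 33.1 CPM in control 4 and at 0.0844 to 5.54 CPM elsewhere, with -4.04 ± 1.05 in homozygous against control mice (edgeR, adjusted p = 0.157; DESeq2 Wald test, adjusted p = 0.00555). *Ighv1-15* gave the highest positive value in that comparison, 3.81 ± 1.55 (edgeR, adjusted p = 0.553), with 132 CPM in homozygous 1, 35.3 CPM in homozygous 2 and 0.227 to 1.09 CPM in the other homozygous mice. *Ighv2-5* (2.74) and *Ighv13-2* (2.69) came next there, and *Ighv1-20* (-3.27 in heterozygous and -3.73 in homozygous mice) was at 268 CPM in control 6.

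*Igkv4-58* (chr6:69500254-69500786, minus strand) was the only member whose groups did not overlap in a comparison. It was at 0 to 2.26 CPM in controls and 2.41 to 38.4 CPM in heterozygous mice. In homozygous mice it was at 26.0 CPM in homozygous 1 and at 0 to 0.223 CPM in the other 5. Ranges that did not overlap, with the heterozygous mice higher than the controls, were found for 0.275% of all genes tested, so 1 of 175 members is near the background. It reached 1 CPM in all 6 heterozygous but 1 control and 1 homozygous library, so it is a member only through the group where it is high and had to differ there, and its separate ranges and adjusted p-values are a description only. The log2 fold change of heterozygous against control mice was 4.68 ± 1.54 (edgeR, adjusted p = 0.580). Without homozygous 1, which changes the spread the fit estimates for the gene, it was 4.68 ± 0.89 (adjusted p = 0.0289), and homozygous against heterozygous mice then differed by -7.92 (adjusted p = 0.0433). The highest positive values next to it in heterozygous against control mice were those of *Igkv9-124* (3.24 ± 1.10, edgeR, adjusted p = 0.648), at 199 and 109 CPM in heterozygous 1 and 2, and of *Igkv1-122* (2.77 ± 1.09, adjusted p = 0.837). *Ighv9-4* (-3.79 ± 1.41, adjusted p = 0.769) was among the lowest.

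In homozygous against heterozygous mice, *Igkv4-61* (-4.27 ± 1.49, edgeR, adjusted p = 0.594) rested on 84.5 CPM in heterozygous 3, against 0.104 to 13.4 CPM elsewhere. *Ighv1-82* (-4.07 ± 1.07, adjusted p = 0.545) was at 174 and 151 CPM in heterozygous 1 and 2 and at 1.24 to 16.1 CPM elsewhere, and was called by the DESeq2 Wald test (adjusted p = 0.0366). *Ighv8-12* (-3.71 ± 1.32, adjusted p = 0.610) was at 429 CPM in heterozygous 2. On the positive side, *Ighv5-6* (2.93 ± 1.12, adjusted p = 0.650) was at 58.1 CPM in homozygous 2 and 29.8 CPM in homozygous 6 and below 1 CPM in the other 4 homozygous mice. *Ighv1-76* (2.77 ± 1.12) and *Igkv3-5* (2.68 ± 0.94) were highest in homozygous 2 as well.

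Genes around the antibody pathway were read beside the members. None of 17 tested plasma cell genes, 17 B cell and follicle genes, 10 germinal centre and class switching genes, 10 IgA induction and recruitment genes or 12 IgA transport and homing genes passed an adjusted p of 0.05 in any comparison by edgeR. In homozygous against control mice, 13 of 17 plasma cell genes had negative log2 fold changes (median -0.10). Without the 4 libraries high in B cell genes 16 of 17 were negative (median -0.20). Of these 17, 3 then had an unadjusted p under 0.05 by edgeR, against 952 of all 16736 genes. With all libraries an unadjusted p under 0.05 was found for 5 of 17 plasma cell, 15 of 17 B cell and follicle, 3 of 10 germinal centre, 1 of 10 IgA induction and 6 of 12 transport and homing genes, against 7.81% of all genes tested. *Jchain* was at -0.37 ± 0.23 (adjusted p = 0.729), *Txndc5*, an oxidoreductase of the endoplasmic reticulum, at -0.05 ± 0.07 (adjusted p = 0.912) and *Xbp1*, the secretory transcription factor, at 0.01 ± 0.09 (adjusted p = 0.997). Homozygous 1 raises the *Jchain* value, with 526 CPM against 167 to 284 CPM in the other homozygous libraries. All 17 B cell genes were negative (median -2.52), with *Cd79a*, a part of the B cell receptor, at -2.25 ± 0.95 (adjusted p = 0.581) and without the 4 libraries 12 of 17 were negative (median -0.28). Among transport and homing genes 11 of 12 were negative (median -0.51), and 9 of 12 without the 4 libraries (median -0.13). *Pigr*, the receptor that carries IgA across the epithelium, was at 2486 to 2737 CPM in controls and 1880 to 2583 CPM in homozygous mice (log2 fold change -0.15 ± 0.09, adjusted p = 0.713). *Ccl25*, the epithelial chemokine that draws plasma cells to the small intestine, was at -0.21 ± 0.09 (adjusted p = 0.597), and *Fcgrt*, the neonatal Fc receptor for IgG, at 0.30 ± 0.08 (adjusted p = 0.149).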

How the data were processed

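RNA from whole-thickness ileum of 18 mice (7 female, 11 male) was sequenced by the authors as poly-A libraries with paired reads. Reads were aligned with STAR to GRCm38 (Ensembl release 101) and uniquely aligned, unambiguous reads were counted per gene with featureCounts. The deposited counts (38528522 to 50376371 per library) are not normalized. The deposited CPM values, which the authors scaled to the total count of a library, were used for levels. FPKM values that the authors deposited beside the counts, and a table of moderated log2 CPM, were not used. With unique alignment, reads shared by near-identical V or constant genes are missing from the counts.

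Members and gene lists were chosen with earlier results of these data known. Counts of genes with at least 1 CPM in at least 4 libraries were fitted over all 18 libraries and 3 genotypes with edgeR 4.0.16 (TMM, quasi-likelihood test, R 4.3.3), with Benjamini-Hochberg adjustment over all genes tested and a threshold of 0.05. Labels do not say more of replicates than that each is a mouse. Log2 ratios of constant genes (counts plus 0.5) were compared with exact permutation tests, and correlations used log2(CPM + 0.1). Spread was measured on log2 CPM from edgeR with a prior count of 2. Sequences came from GENCODE M21 on GRCm38, and all 175 members matched it by start and end. The fitting steps were tested on simulated data.

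Named were all constant and J members, the V segments with the highest mean CPM (5 per locus), the 3 highest and 3 lowest fold changes per comparison, the 6 largest shares of a locus, the members at the threshold and, per gene list, called genes or otherwise the 4 with the highest mean CPM, of which examples are given. *Mzb1*, *Tnfrsf17*, *Ighe*, *Ighv11-2*, *Ighv2-6*, *Ighv1-18* and *Ighv5-9-1* were named after their values were seen. Some items are not reported here. Lists of plasma cell, B cell and follicle, germinal centre, IgA induction, IgA transport, T cell, macrophage and dendritic cell, enterocyte, smooth muscle and fibroblast genes were read. Alternatives were DESeq2 1.42.0 (Wald test), limma 3.58.1 (voom), other scalings, filters and covariates, a replicate block, and leaving out each library.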

Additional observations from a re-analysis of the deposited data

Results flagged for a closer look

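Of 81 groups of 6 libraries tested with Dixon's criterion (95% critical value for 6), 7 had a library far from the other 5 of its genotype. Chance gives about 1 in 20 such groups where values are normally distributed and groups are independent. Several of the 7 come from heterozygous 2, so they are not independent. In heterozygous 2, *Ighd* was at 52.7 CPM, *Ighg2b* at 73.1 CPM, *Ighg3* at 18.4 CPM and *Ighj2* at 68.1 CPM, each above the other heterozygous libraries. In control 5, *Ighj1* was at 3.23 CPM, below the other controls. In heterozygous 1 the log2 ratio of *Iglc1* to *Igkc* was -7.35, the lowest of its genotype. In control 4 the effective number of *Ighv* segments was 20.9, the highest of the controls.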

How the results depend on the processing

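No member was called by edgeR with all libraries, while the DESeq2 Wald test called 5 members in homozygous against control, 2 in heterozygous against control and 2 in homozygous against heterozygous mice. Those not given above were *Ighv1-18* in homozygous against control mice (-2.54, adjusted p = 0.0171) and *Ighv5-9-1* in homozygous against control (-2.30, adjusted p = 0.0272) and against heterozygous mice (-3.15, adjusted p = 0.00279). *Ighv1-18* was at 42.6 CPM in control 4, 1.69 to 11.1 CPM in the other controls and 0.796 to 3.02 CPM in homozygous mice. Leaving out each library in turn gave 0 to 1 called members in each comparison (*Iglc2* without control 1, where 72 of all 16736 genes were called in homozygous against control mice, and *Igkv4-58* without homozygous 1, where 49 were called in heterozygous against control and 2 in homozygous against heterozygous mice). *Igkv4-58* is a member only through the heterozygous mice and *Ighv14-1* only through the controls, where each had to be high. The calls of *Igkv4-58* and *Ighv14-1* are therefore a description only. The log2 ratio of *Igha* to *Ighm* in homozygous against heterozygous mice was -2.36 without the 4 libraries high in B cell genes (adjusted exact p = 0.0476). That choice was made after seeing the data and drops the lowest heterozygous and the highest homozygous ratio, so this p is a description only. The median *Igha* share of homozygous mice was 93.2% per kilobase. Of 5712 values under alternatives, 167 had another sign than the value they stand beside, none of them called. These sign changes fell on 74 of the 201 results. The causes were not tested.

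The genotypes share replicate numbers, but no label says that a number marks a shared litter or day, and same-numbered libraries did not deviate together throughout (r from -0.416 to 0.484). With the replicate block edgeR called 0 members in each comparison (52, 28 and 0 of all 16736 genes), and the ratio of *Igha* to *Ighm* differed by -0.06, 1.65 and -1.71 and that of *Iglc1* to *Igkc* by -0.28, -1.20 and 0.92 in homozygous against control, heterozygous against control and homozygous against heterozygous mice (lowest adjusted exact p = 0.281). Counts on V segments shared by similar copies limit what these libraries resolve.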

Other observations

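Lists of genes of other cells in the ileum were read in the same fit. All 12 T cell genes had negative log2 fold changes in homozygous against control mice (median -0.92, 12 with an unadjusted p under 0.05, against 7.81% of all genes tested) and in heterozygous against control mice (median -0.77, 7 with an unadjusted p under 0.05, against 5.2% of all genes), and none passed edgeR's adjusted threshold. Their summed level was 127 and 107 CPM in controls 2 and 3 and 90.1 CPM in heterozygous 2, which are high in B cell genes, against 44.5 to 62.8 CPM in the other controls and 33.8 to 47.8 CPM in homozygous mice. Without the 4 libraries high in B cell genes the medians were -0.43 (6 of 12 with an unadjusted p under 0.05, against 952 of all 16736 genes) and -0.61 (7 of 12, against 772 of 16736). *Cd4*, the co-receptor of helper T cells, was at 14.3 to 28.4 CPM in controls and 9.96 to 13.2 CPM in homozygous mice (-0.68 ± 0.18, edgeR, adjusted p = 0.173). Macrophage and dendritic cell genes had a median of 0.02 in homozygous against control mice, with 4 of 12 negative. Of 12 enterocyte genes (median 0.03) 1 passed there, *Fabp2*, the intestinal fatty acid binding protein. All 10 smooth muscle genes (median 0.58) and all 10 fibroblast genes (median 0.36) had positive values without passing the test. The germinal centre list had a median of -0.10, with 7 of 10 tested genes negative, and the IgA induction list a median of -0.51, with 8 of 10 negative. Without the 4 libraries, 5 of 10 germinal centre genes and 2 of 10 IgA induction genes (median 0.15) were negative.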
